A study of Mus musculus with 18 samples.

Results

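The 10 genes described here were listed as targets of hypoxia-inducible factor (HIF), namely Hif1a, Vegfa, Slc2a1, Ldha, Pgk1, Bnip3, Egln3, Adm, Ddit4 and Ankrd37. Hif1a encodes an alpha subunit of HIF itself and is counted with the others as a member of this list. The 10 genes were taken by symbol from the raw count table of 43629 mouse genes, where each symbol matched 1 Ensembl identifier. All 10 were among the 11964 genes that passed the filter on low counts. The cells were AT3, a mouse mammary carcinoma line that served as a model of triple-negative breast cancer, and RNA was measured by QuantSeq, which reads the 3′ ends of polyadenylated transcripts. The 6 conditions had 3 libraries each. Cells received vehicle (DMSO), A-241 at 250 nM or A-485 at 1000 nM for 1 h, and then either no cytokine or recombinant murine IFNγ for 2 h more, so that all cells were collected at 3 h. Both compounds inhibit the acetyltransferase activity of P300 and CBP. The labels of the combined conditions, A-241+IFNγ and A-485+IFNγ, name the inhibitor without repeating its dose. All 18 libraries come from 1 cell line, and neither low oxygen nor a HIF stabiliser is named for any condition. The labels call the triplicates biological and the study's methods call them technical, so the p values measure the spread between these libraries only.

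HIF is a pair of an oxygen-sensitive alpha subunit, such as the product of Hif1a, and the stable beta subunit encoded by Arnt. In oxygen, prolyl hydroxylases of the Egln family mark the alpha subunit for destruction by the VHL ubiquitin ligase, and the asparagine hydroxylase encoded by Hif1an blocks its contact with P300 and CBP. When oxygen is scarce the alpha subunit escapes, binds with its partner to DNA at the core letters ACGTG or GCGTG, and recruits P300 and CBP to genes of glucose uptake, glycolysis, vessel growth, mitophagy and its own feedback. Several of these genes also have other inducers, such as growth factors, glucocorticoids and nutrient stress, and are transcribed in oxygenated cultures.

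Promoter windows of 300 bases, from 250 before to 50 after the transcription start, were read for the members from RefSeq (GRCm38.p6). All 10 members had at least 1 match of ACGTG or GCGTG, on either strand, in a window. A match was also present in 46.7% of the 27025 genes with a window, and in 43.8% of the 32851 windows. The member windows were richer in CG dinucleotides, with a median of 21 against 7 over all windows, and of windows with at least 9, the lowest number among members, 67.4% held the motif. The first windows of Ldha, Vegfa, Ddit4 and Adm are shown, since these members were called in the fit of all 18 libraries or without the 2 libraries described next. Capitals mark ACGTG or GCGTG, or CACGT or CACGC where the match is on the opposite strand, and overlapping matches run together as CACGTG.
Ldha, chr7:46845554-46845853, + strand: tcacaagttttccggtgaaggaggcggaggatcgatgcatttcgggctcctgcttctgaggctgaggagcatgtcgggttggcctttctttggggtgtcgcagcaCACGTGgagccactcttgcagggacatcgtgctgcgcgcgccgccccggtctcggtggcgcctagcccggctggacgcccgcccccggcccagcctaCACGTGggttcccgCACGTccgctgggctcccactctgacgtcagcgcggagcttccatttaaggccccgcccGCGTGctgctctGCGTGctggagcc
Vegfa, chr17:46032328-46032627, - strand: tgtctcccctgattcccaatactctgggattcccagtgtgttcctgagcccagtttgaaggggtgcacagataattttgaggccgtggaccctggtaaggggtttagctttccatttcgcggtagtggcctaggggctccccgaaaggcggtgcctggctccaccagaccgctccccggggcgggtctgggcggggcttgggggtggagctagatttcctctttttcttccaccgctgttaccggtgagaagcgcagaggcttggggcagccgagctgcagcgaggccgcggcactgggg
Ddit4, chr10:59951721-59952020, - strand: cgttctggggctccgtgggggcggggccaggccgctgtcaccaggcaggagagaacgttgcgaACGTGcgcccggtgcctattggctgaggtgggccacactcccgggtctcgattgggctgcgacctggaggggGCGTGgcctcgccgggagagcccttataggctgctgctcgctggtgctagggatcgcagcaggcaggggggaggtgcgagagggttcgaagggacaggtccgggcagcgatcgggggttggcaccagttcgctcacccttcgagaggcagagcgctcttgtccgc
Adm, chr7:110627407-110627706, + strand: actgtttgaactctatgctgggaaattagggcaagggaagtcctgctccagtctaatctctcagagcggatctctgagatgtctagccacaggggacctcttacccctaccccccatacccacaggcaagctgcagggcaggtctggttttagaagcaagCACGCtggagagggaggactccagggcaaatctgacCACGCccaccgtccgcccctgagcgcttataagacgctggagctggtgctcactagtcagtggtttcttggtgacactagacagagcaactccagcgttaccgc
Ldha held 7 matches, 4 of them within 2 copies of CACGTG, of which the nearer begins at position -48 from the start. Ddit4 had 2 matches, which begin at positions -187 and -115, and Adm had 2, both on the opposite strand. The first window of Vegfa held 0, and its second start, inside the gene, had 2. A match describes the letters only, and no binding was measured here.

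Total counts ranged from 3417167 to 7856830 per library, and 3 counts, taken as the floor of detection, correspond to 0.382 to 0.878 CPM (counts scaled to a common library size). This floor is scaled by total counts, whereas the other CPM values also use TMM factors, so it is approximate for them. The libraries DMSO replicate 3 and IFNγ replicate 2 stood apart, with 20.1% and 23.0% of their counts on Gm42418, a transcript that overlaps ribosomal RNA sequence, against 7.11 to 16.2% in the other 16. In these libraries Ddit4 was 2.64 and 3.25 log2 units below the mean of the other 2 libraries of its condition, and Adm was 2.46 and 2.68 below. Elsewhere the size of this deviation reached at most 1.89 for Ddit4 and 2.29 for Adm. Both of those are for IFNγ replicate 3, whose comparison mean includes IFNγ replicate 2. In the conditions without either library the largest were 0.82 for Ddit4 and 1.93 for Adm, both in A-485 replicate 3. In the 2 libraries rich in Gm42418, Pgk1 was 0.82 and 0.91 below and Slc2a1 0.72 and 1.75 below, whereas Hif1a was 0.81 and 0.92 above and Vegfa 0.35 and 0.57 above. Since both libraries are controls for the inhibitors, the main values of the members are given with and without them, and the cause of their deviation was not tested. The epithelial markers Krt8, Krt18, Epcam, Cdh1, Gata3 and Sox9 were present in all 18 libraries, at 28.3 CPM or more, while Krt19 reached at most 0.200 CPM. Of the leukocyte and endothelial markers, Adgre1, Cdh5 and Tek were at 0 counts in all libraries. The endothelial marker Pecam1 was at 0.435 to 4.12 CPM, and Kdr reached at most 1.19 CPM. The mesenchymal markers Fn1, Vim and Cdh2 were at 24.2 CPM or more in all libraries. Col3a1 was at 1.19 to 6.19 CPM, and Col1a1 and Pdgfrb reached at most 1.47 and 1.92 CPM. The summed level of the leukocyte markers ranged from 1.83 to 7.26 CPM in 4 of the conditions, from 4.20 to 20.2 CPM in A-485 and from 2.62 to 13.4 CPM in IFNγ.

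**Figure D1:**
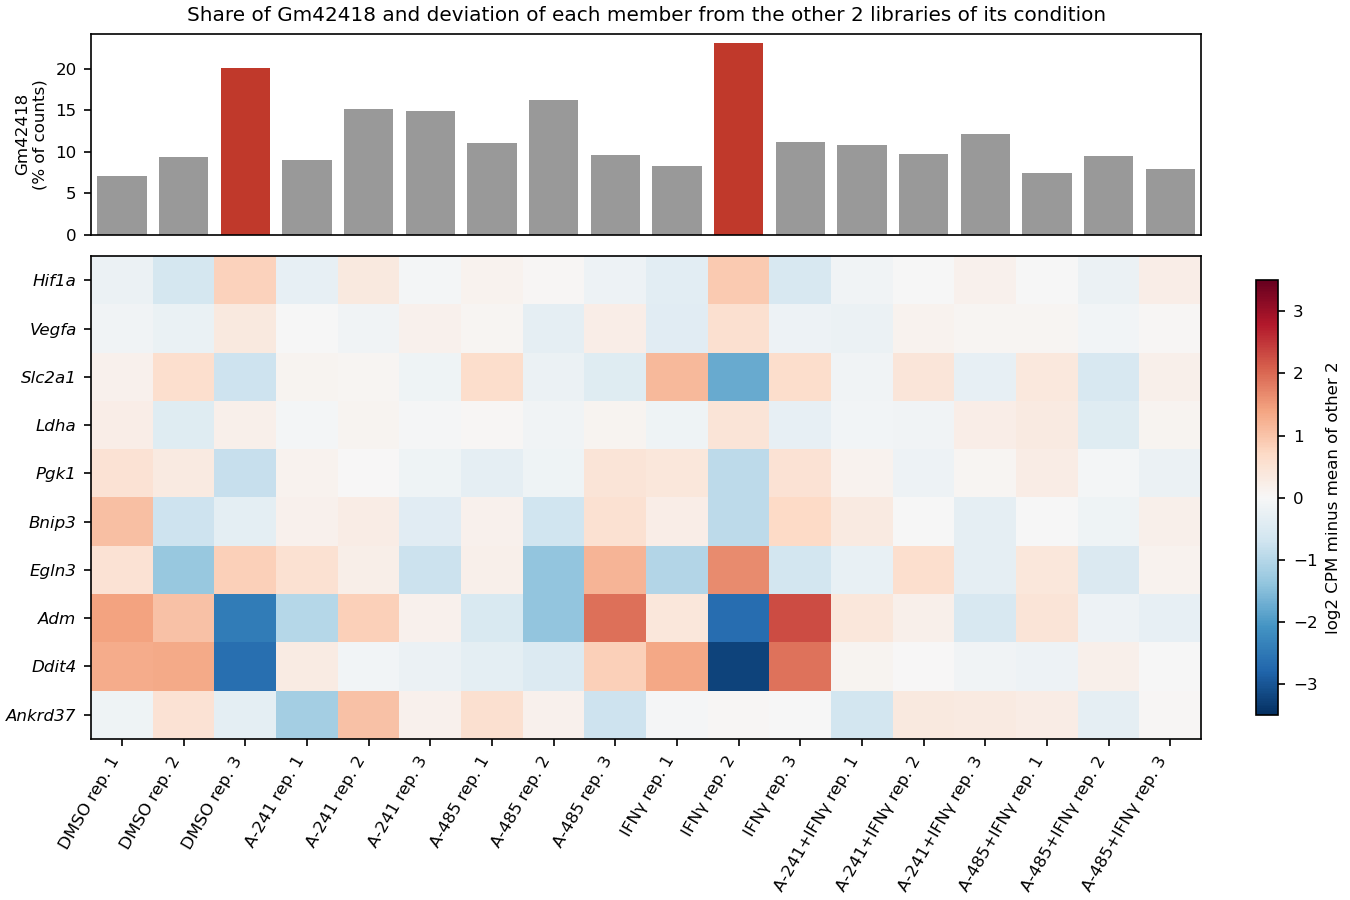
The bars give the share of counts on Gm42418 in each of the 18 libraries (percent), with DMSO replicate 3 and IFNγ replicate 2 in red. The colour grid gives, for each member and library, log2 CPM minus the mean log2 CPM of the other 2 libraries of the same condition, and in both red libraries Ddit4 and Adm are more than 2.4 log2 units low.

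Hif1a and Egln3 belong to the oxygen-sensing arm. Hif1a (GRCm38 chr12:73901375-73947530, + strand), the alpha subunit itself, was at 50.6, 41.8 and 81.2 CPM in the DMSO libraries, at 46.7, 62.9 and 52.0 CPM with A-241 and at 52.8, 50.6 and 45.5 CPM with A-485. With IFNγ it was at 51.5, 93.5 and 46.9 CPM, with A-241+IFNγ at 48.9, 51.7 and 55.7 CPM and with A-485+IFNγ at 50.5, 46.2 and 56.6 CPM. The ranges of all 6 conditions overlap, and the highest values of DMSO and of IFNγ are those of the libraries rich in Gm42418. The mean effect of A-241, which averages its effect without and with IFNγ, was -0.19 ± 0.18 on the log2 scale (SE; 95% interval -0.57 to 0.19, edgeR adjusted p = 0.487), and that of A-485 was -0.26 ± 0.18 (-0.65 to 0.12). Without the 2 libraries the effects were 0.13 (-0.09 to 0.35) and 0.06 (-0.16 to 0.28), so the sign of this difference depends on those libraries. Hif1a shares 330 exon bases with the antisense gene Gm15283 and 148 with Gm49321, and reads there were counted for both.

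Egln3 (chr12:54178981-54203860, - strand), a prolyl hydroxylase that HIF induces as a brake on itself, was a low gene. Its counts were 18, 9 and 13 in DMSO, 7, 6 and 3 in A-241, and 9, 3 and 12 in A-485. In the presence of the cytokine they were 9, 16 and 8 with IFNγ, 3, 7 and 3 with A-241+IFNγ, and 6, 3 and 5 with A-485+IFNγ. Every count was at or below 18. Once scaled for depth, the highest A-241 library (1.47 CPM) overlaps with the lowest DMSO library (1.42 CPM), and the highest A-241+IFNγ library (1.14 CPM) with the lowest IFNγ library (1.11 CPM). Pooled over the 3 libraries and scaled by total counts, without the TMM factors used for CPM, the A-241 level was 0.409 of the DMSO level. The A-241+IFNγ level was 0.473 of the IFNγ level. Their exact 95% intervals from the counts, 0.214 to 0.747 and 0.228 to 0.923, cover counting error only. Mean CPM with TMM factors was 1.10 with A-241 against 3.24 in DMSO, and 0.804 with A-241+IFNγ against 2.42 with IFNγ. The mean log2 effect was -1.41 ± 0.46 for A-241 (adjusted p = 0.0408) and -1.08 ± 0.45 for A-485 (adjusted p = 0.181), neither of which was called at the threshold of 0.01. These values were -0.89 ± 0.43 and -0.56 ± 0.41 without the libraries rich in Gm42418.

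**Figure D2:**
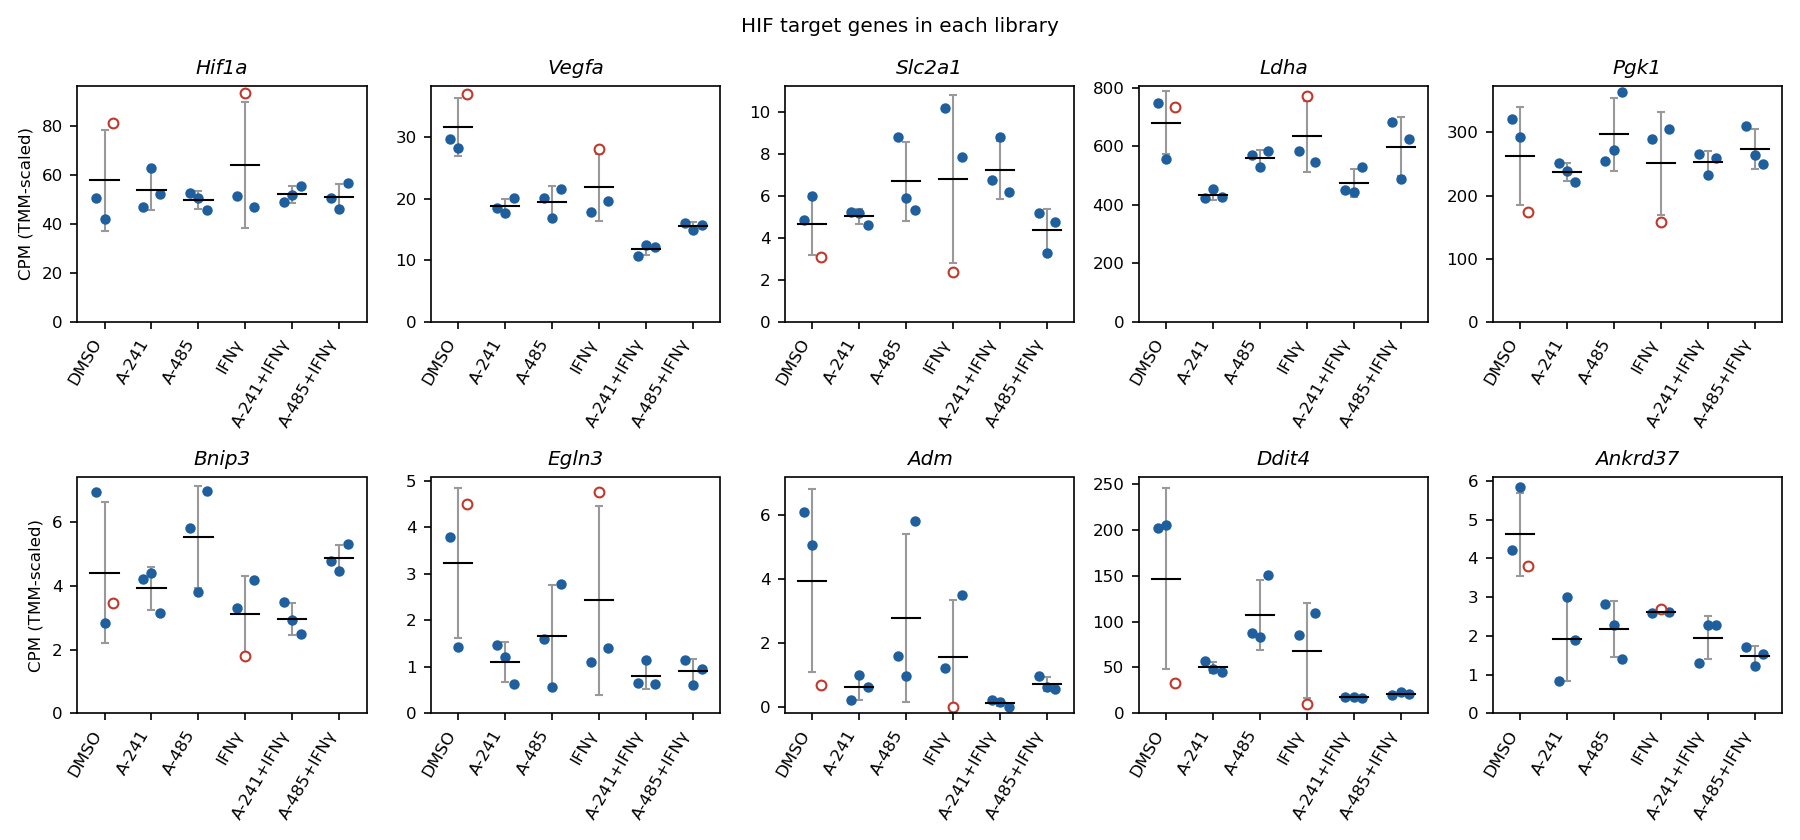
Each panel plots 1 gene in CPM scaled by TMM factors, with a point for each library, a horizontal line for the mean of 3 libraries and a grey bar for its SD, and open red circles for DMSO replicate 3 and IFNγ replicate 2. Vegfa with A-241 lies below its controls both without and with IFNγ, and the lowest circles of Ddit4 in DMSO and IFNγ are the red ones, at 32.5 and 9.83 CPM.

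The members that encode secreted factors are Vegfa and Adm, and of these Vegfa was called in the fit of all libraries. Vegfa (chr17:46016993-46032369, - strand) encodes the main growth factor of blood vessels. Its level was 29.7, 28.3 and 37.0 CPM in DMSO, 18.5, 17.6 and 20.0 CPM with A-241, and 20.1, 16.8 and 21.6 CPM with A-485. After IFNγ it was 17.8, 28.0 and 19.6 CPM, with A-241+IFNγ 10.7, 12.4 and 12.2 CPM, and with A-485+IFNγ 16.1, 14.9 and 15.8 CPM. Neither inhibitor's libraries overlap with their controls in either cytokine state. In bulk RNA, less transcript per cell and fewer cells that carry it cannot be told apart. Vegfa fell with A-241 in IFNγ-treated cells by 0.88 ± 0.18 on the log2 scale (95% interval -1.27 to -0.49, edgeR adjusted p = 0.00626), and over both cytokine states by 0.81 ± 0.13 (-1.09 to -0.54, adjusted p = 0.000282). Without IFNγ the difference was -0.75 ± 0.18 (adjusted p = 0.0141). For A-485 the differences were -0.69 ± 0.18 without IFNγ (adjusted p = 0.0604), -0.47 ± 0.18 with it (adjusted p = 0.236) and -0.58 ± 0.13 on average (adjusted p = 0.0113), none of them called.

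The lower level of Vegfa with A-241 did not rest on the libraries rich in Gm42418. Without them the log2 differences were -0.67 ± 0.15 against DMSO (adjusted p = 0.00441), -0.67 ± 0.16 against IFNγ (adjusted p = 0.00625) and -0.67 ± 0.11 on average (adjusted p = 0.000124), so that all 3 comparisons were called. When each of its 12 libraries was removed in turn, the average effect was called every time (highest adjusted p = 0.0013). The comparison within IFNγ-treated cells was less firm, since it lost its call without any 1 of 5 of its 6 libraries, the exception being IFNγ replicate 1, with adjusted p up to 0.0376, and in the fit of those 6 libraries alone (adjusted p = 0.144).

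Adm (chr7:110627661-110629820, + strand) encodes adrenomedullin, a peptide that widens blood vessels. Its counts were 29, 32 and 2 in DMSO and 1, 5 and 3 with A-241, against 9, 5 and 25 with A-485. They were 10, 0 and 20 with IFNγ, 1, 1 and 0 with A-241+IFNγ, and 5, 3 and 3 with A-485+IFNγ. The lowest control counts, 2 and 0, are those of the libraries rich in Gm42418. Through them A-241 overlaps with DMSO, and A-241+IFNγ and A-485+IFNγ overlap with IFNγ. In CPM A-485 overlaps with DMSO also apart from them, since A-485 replicate 3, at 5.81 CPM, lies above DMSO replicate 2, at 5.05 CPM. Ratios of counts pooled over libraries were scaled by total counts, without TMM factors. A-241 held 9 counts against 63 in DMSO, a ratio of 0.146 (exact 95% interval 0.0639 to 0.296). A-241+IFNγ held 2 against 30 in IFNγ, a ratio of 0.0800 (0.00927 to 0.315). For A-485 the ratios were 0.594 (0.388 to 0.899) without and 0.432 (0.195 to 0.888) with IFNγ, and all these intervals cover counting error alone. In the fit over all libraries the average effect of A-241 was -3.10 ± 0.78 on the log2 scale, with an edgeR adjusted p of 0.01004, just above the threshold. Without the 2 libraries Adm was called, at -3.53 ± 0.59 (adjusted p = 0.000167), and also without DMSO replicate 3 alone (adjusted p = 0.0034) or IFNγ replicate 2 alone (adjusted p = 0.00264). With A-241+IFNγ at or near 0 counts, the fitted size depends on the prior count of the model.

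The metabolic members were Slc2a1, Ldha and Pgk1. Ldha (chr7:46841475-46855627, + strand), the lactate dehydrogenase subunit that turns pyruvate into lactate, was at 750.2, 557.8 and 735.3 CPM in DMSO, at 421.7, 454.9 and 425.4 CPM with A-241 and at 570.5, 527.9 and 582.8 CPM with A-485. In IFNγ-treated cells it was at 584.7, 771.6 and 545.6 CPM, with A-241+IFNγ at 450.7, 444.7 and 528.8 CPM and with A-485+IFNγ at 684.4, 490.0 and 624.4 CPM. The A-241 libraries lie below their controls in both states, and the A-485 libraries overlap with theirs. Ldha fell with A-241 over both states by 0.53 ± 0.12 on the log2 scale (95% interval -0.79 to -0.27, edgeR adjusted p = 0.0059), and by 0.44 ± 0.10 without the libraries rich in Gm42418 (adjusted p = 0.00365). For A-485 the average was -0.18 ± 0.12 (-0.44 to 0.08, adjusted p = 0.415). The Ldha call was near the threshold and was lost without any 1 of 7 of the 12 libraries, namely DMSO replicates 1 and 3, each A-241 library, and A-241+IFNγ replicates 1 and 2, with adjusted p up to 0.0182. It was also lost with total counts in place of TMM factors (-0.39, adjusted p = 0.017), a scaling under which the median of all genes moved from 0.00 to 0.13 in this comparison. The call was lost as well with only the groups compared, with a replicate block, and with no filter on low counts, where Adm, Ddit4 and Vegfa were called.

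Pgk1 (chrX:106187100-106203699, + strand), the phosphoglycerate kinase of glycolysis, gave 321.5, 292.7 and 174.1 CPM in DMSO, 251.4, 238.6 and 221.9 CPM with A-241, and 255.2, 272.9 and 363.4 CPM with A-485. With IFNγ it gave 289.3, 157.9 and 306.0 CPM, with A-241+IFNγ 266.3, 232.1 and 259.8 CPM, and with A-485+IFNγ 310.0, 263.5 and 249.8 CPM. The low value in each control condition is that of the library rich in Gm42418, and the groups overlap. The average log2 effect of A-241 was -0.07 ± 0.17 (95% interval -0.44 to 0.30) with all libraries and -0.33 ± 0.10 (-0.54 to -0.11, adjusted p = 0.0232) without those 2, and for A-485 it was 0.15 ± 0.17 and -0.10 ± 0.10. No call was made. Ldha and Pgk1 have processed copies elsewhere in the mouse genome, and how reads that match several places were treated is not given in the sources used here, so small changes in either gene are uncertain.

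Slc2a1 (chr4:119108711-119137983, + strand), the glucose transporter GLUT1, had 23, 38 and 9 counts in DMSO, 25, 26 and 22 with A-241, and 50, 31 and 23 after A-485. With IFNγ its counts were 83, 8 and 45, with A-241+IFNγ 31, 54 and 30, and with A-485+IFNγ 27, 16 and 25. The counts of 9 and 8 belong to the libraries rich in Gm42418. The average log2 effect of A-241 was 0.05 ± 0.27 (-0.52 to 0.62) with all libraries and -0.24 ± 0.19 (-0.64 to 0.16) without those 2, so the sign turned. In IFNγ-treated cells A-485 gave -0.69 ± 0.38 (edgeR adjusted p = 0.407), and -1.05 ± 0.26 without the 2 libraries (adjusted p = 0.0199), neither of which was called. Slc2a1 shares 105 exon bases with the antisense gene Gm12868.

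The remaining members act in mitophagy, growth control and feedback. Ddit4 (chr10:59949669-59951834, - strand), also known as REDD1, restrains mTORC1 under stress. It was at 202.6, 205.3 and 32.5 CPM in DMSO, at 57.2, 47.9 and 45.3 CPM with A-241, and at 88.1, 83.0 and 151.5 CPM with A-485. After IFNγ it was at 85.4, 9.83 and 109.6 CPM, with A-241+IFNγ at 18.1, 17.4 and 16.3 CPM, and with A-485+IFNγ at 19.5, 23.0 and 20.9 CPM. Apart from DMSO replicate 3 and IFNγ replicate 2, each control library lies above all libraries of either inhibitor in the same cytokine state. With all libraries the differences were not called. They were -1.56 ± 0.63 on the log2 scale for A-241 against DMSO (edgeR adjusted p = 0.144), -1.99 ± 0.65 for A-241+IFNγ against IFNγ (adjusted p = 0.0772), and -1.78 ± 0.45 on average (adjusted p = 0.011). For A-485 the average was -1.08 ± 0.44 (adjusted p = 0.174).

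Without the libraries rich in Gm42418, Ddit4 was called lower in every contrast of an inhibitor with its control. The log2 differences were then -2.06 ± 0.20 for A-241 against DMSO (95% interval -2.47 to -1.65, adjusted p = 4.98e-07), -2.50 ± 0.21 for A-241+IFNγ against IFNγ (-2.94 to -2.06, adjusted p = 8.66e-08), -0.96 ± 0.19 for A-485 against DMSO (-1.36 to -0.56, adjusted p = 0.00503) and -2.21 ± 0.21 for A-485+IFNγ against IFNγ (-2.65 to -1.78, adjusted p = 2.59e-06). Leaving out DMSO replicate 3 alone or IFNγ replicate 2 alone was enough for the average effect of A-241 to be called, at adjusted p = 0.000989 and 0.000305. The A-485 library with the highest Ddit4 and the highest Adm, replicate 3, was also the one with the most Ptprc, a leukocyte gene, at 17.0 CPM, and its part in those values was not tested.

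Bnip3 (chr7:138890836-138909519, - strand), a receptor for mitophagy, had 33, 18 and 10 counts in DMSO, 20, 22 and 15 with A-241, and 33, 20 and 30 after A-485. With IFNγ the counts were 27, 6 and 24, with A-241+IFNγ 16, 18 and 12, and with A-485+IFNγ 25, 22 and 28. The groups overlap with their controls except that A-485+IFNγ, at 4.48 to 5.32 CPM, lies above IFNγ, at 1.79 to 4.20 CPM, and also above A-241+IFNγ, at 2.48 to 3.48 CPM. The average log2 effect was -0.14 ± 0.26 (-0.69 to 0.40) for A-241 and 0.46 ± 0.25 (-0.07 to 0.98) for A-485, and neither was called. They were -0.32 ± 0.25 and 0.28 ± 0.24 without the libraries rich in Gm42418, also not called. Bnip3 shares 504 exon bases with the antisense gene Gm45507.

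Ankrd37 (chr8:45996902-46005707, - strand), which encodes an ankyrin-repeat protein and is induced by HIF, had 20, 37 and 11 counts in DMSO, 4, 15 and 9 with A-241, and 16, 12 and 6 after A-485. It had 21, 9 and 15 counts with IFNγ, 6, 14 and 11 with A-241+IFNγ and 9, 6 and 8 with A-485+IFNγ. In CPM the DMSO libraries, at 3.80 to 5.84, all lie above the A-241 and A-485 libraries, which reach at most 3.00, and the IFNγ libraries, at 2.58 to 2.68, lie above those with an inhibitor and IFNγ, which reach at most 2.28. The average log2 effects were -0.84 ± 0.27 for A-241 (edgeR adjusted p = 0.0357) and -0.95 ± 0.27 for A-485 (adjusted p = 0.0496), and they changed little without the libraries rich in Gm42418 (-0.91 ± 0.29 and -1.01 ± 0.29). Neither passed the threshold. Ankrd37 shares 349 exon bases with Lrp2bp and 57 with Ufsp2 on the other strand.

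**Figure D3:**
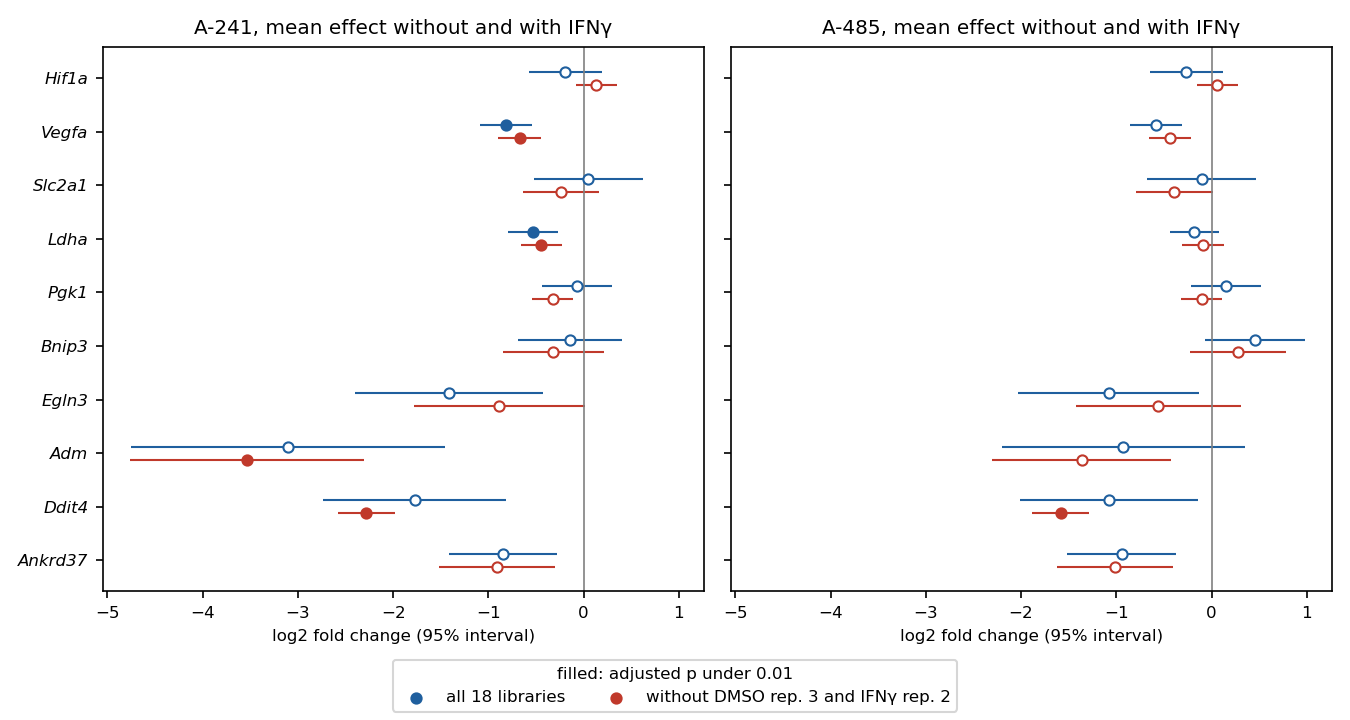
Average log2 fold change of each member for A-241 (left) and A-485 (right) over the states without and with IFNγ, with 95% intervals, from the fit of all 18 libraries (blue) and without DMSO replicate 3 and IFNγ replicate 2 (red). Filled points passed an adjusted p of 0.01, which holds for Vegfa and Ldha with A-241 in both fits, and for Adm (A-241) and Ddit4 (both inhibitors) in the second fit only.

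Counted over the 10 members, the average effect of A-241 called 2 lower, Vegfa and Ldha, and 0 higher. Of all 11964 genes, 7.05% were called lower in this comparison. The difference was below 0 for 9 of the 10 members, with a median of -0.67 against 0.00 over all genes. limma-voom called the same 2 genes, and DESeq2 called 4, namely Ldha, Adm, Ddit4 and Vegfa. With the libraries rich in Gm42418 left out, edgeR called those 4 as well, against 9.76% of 12135 genes. For A-485 on average, 0 members were called with edgeR and with limma-voom, and DESeq2 called Vegfa. An unadjusted p under 0.05 was found for 4 members with edgeR, and for 2507 of all 11964 genes. Of all genes 2.39% were called lower, and 8 members were below 0, with a median of -0.42. Without the 2 libraries, edgeR called Ddit4 alone, against a background of 4.56%. These comparisons share their control libraries, so the values of A-241 and A-485 are not independent of each other.

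In the single states, A-241 against DMSO gave 0 calls among the members with edgeR and with limma-voom, and DESeq2 called Ldha and Vegfa. In edgeR 6 members had an unadjusted p under 0.05, as did 2781 of 11964 genes, and 3.53% of all genes were called lower. Without the libraries rich in Gm42418 there were 4 calls, Ldha, Adm, Ddit4 and Vegfa, against 6.52%. A-241+IFNγ against IFNγ gave 1 call, Vegfa, with each of the 3 tools, against 3.54%, and 2 without those libraries, Ddit4 and Vegfa, against 5.88%. A-485 against DMSO gave 0 calls with all 3 tools, against 0.619%, and 1 call without those libraries, Ddit4, against 2.28%. Over all libraries 2 members had an unadjusted p under 0.05 with edgeR, as did 1472 of 11964 genes. A-485+IFNγ against IFNγ likewise gave 0 calls with all 3 tools, against 0.535%, and 1 without those libraries, Ddit4, against 2.37%. Again 2 members had an unadjusted p under 0.05 over all libraries, as did 1760 of 11964 genes. The difference between these counts and the background was not tested.

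The inhibitors were set side by side at unequal doses, 250 nM for A-241 and 1000 nM for A-485, so that compound and dose cannot be told apart. With no IFNγ, 9 of the 10 members were lower in A-241 than in A-485, with a median log2 difference of -0.39 against 0.01 over all genes. edgeR, limma-voom and DESeq2 called 0 of them, and edgeR called 0.351% of all genes lower. In edgeR 2 members had an unadjusted p under 0.05. Far more of all genes passed that looser cut than were called, so 0.351% is not its background. Without the libraries rich in Gm42418, neither of which belongs to these groups, the fit called Ddit4, at -1.10 ± 0.18 (95% interval -1.49 to -0.72, adjusted p = 0.00138), against a background of 1.48%. Its libraries do not overlap, at 45.3 to 57.2 CPM with A-241 and 83.0 to 151.5 CPM with A-485. With IFNγ, edgeR called 0 members lower in A-241 than in A-485, and limma-voom and DESeq2 called 0 as well, against a background of 0.51%. In edgeR 1 member had an unadjusted p under 0.05, as did 778 of 11964 genes. Without the 2 libraries the count called was again 0, against 1.24%. There 4 members had an unadjusted p under 0.05, as did 1631 of 12135 genes. Ddit4 differed then by -0.29 ± 0.21 (-0.73 to 0.15) and Vegfa by -0.40 ± 0.15 (-0.71 to -0.09), and neither difference was called, which does not show that the compounds act alike.

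No member was called for IFNγ alone in the test over all libraries. Against DMSO edgeR called 0 members, as did limma-voom and DESeq2, and 0.1% of all genes were called lower. An unadjusted p under 0.05 was found for 2 members with edgeR, and for 1016 of 11964 genes. Ddit4 differed by -1.10 ± 0.62 and Vegfa by -0.54 ± 0.18 (adjusted p = 0.225). Without the libraries rich in Gm42418, Ddit4 was called at -1.08 ± 0.21 (95% interval -1.53 to -0.63, adjusted p = 0.00475), against a background of 0.412%, and Vegfa stood at -0.65 ± 0.16 (adjusted p = 0.0269). With an inhibitor already present, Ddit4 was lower with IFNγ in libraries that do not overlap. It went from 45.3 to 57.2 CPM with A-241 to 16.3 to 18.1 CPM with A-241+IFNγ, and from 83.0 to 151.5 CPM with A-485 to 19.5 to 23.0 CPM with A-485+IFNγ. Neither of the libraries that stand apart is among these 12.

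In the model of all 18 libraries, where the spread of a gene is shared by all conditions, neither of these last differences was called. The log2 difference was -1.54 ± 0.65 with A-241 (edgeR adjusted p = 1) and -2.34 ± 0.65 with A-485 (adjusted p = 0.139). Fitted with only the 6 libraries of each comparison, the same differences were -1.52 (adjusted p = 9.34e-05) and -2.34 (adjusted p = 2.86e-06), and without the libraries rich in Gm42418 they were -1.52 ± 0.20 (adjusted p = 0.000197) and -2.33 ± 0.20 (adjusted p = 2.06e-07). For A-241+IFNγ against A-241, edgeR, limma-voom and DESeq2 called 0 members over all libraries, and 0.0% of all genes were called lower. An unadjusted p under 0.05 was found for 2 members with edgeR, and for 447 of 11964 genes. Without those 2 libraries Ddit4 was called, against 0.0412%. For A-485+IFNγ against A-485 all 3 tools called 0 members, against 0.0585%. In edgeR 1 member had an unadjusted p under 0.05, as did 698 of 11964 genes. Ddit4 was called there too without the 2 libraries, against 0.272%.

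Whether an inhibitor acted on the members differently with IFNγ than without it was tested as an interaction. edgeR called 0 members for A-241, against a background of 0.0334%, and 0 had an unadjusted p under 0.05, against 401 of 11964 genes. For A-485 it called 0 members, against 0.0%, and 1 had an unadjusted p under 0.05, against 499 of 11964 genes. limma-voom and DESeq2 called 0 in both. The interaction of Ddit4 with A-485 was -1.25 ± 0.88 (95% interval -3.11 to 0.61) with all libraries and -1.26 ± 0.29 (-1.86 to -0.65, adjusted p = 0.121) without those rich in Gm42418. That of Vegfa with A-241 was -0.13 ± 0.26 (-0.67 to 0.42) with all libraries, and without those 2 its interval was -0.42 to 0.42. For Slc2a1 with A-485 it was -1.18 ± 0.54 (-2.32 to -0.04) and -1.33 ± 0.38 (-2.13 to -0.53, adjusted p = 0.235).

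Across the 18 libraries the members did not vary as 1 block. Log2 CPM of Adm and Ddit4 had a Pearson correlation of 0.89 and that of Vegfa and Egln3 one of 0.81, and within conditions, after the group means were removed, Pgk1 and Ddit4 reached 0.94. Other pairs went in opposite directions within conditions, with -0.93 for Hif1a and Ddit4, -0.87 for Hif1a and Pgk1 and -0.75 for Vegfa and Ddit4. These are descriptions over 18 libraries that share depth, scaling and treatment, and both libraries rich in Gm42418 weigh on them. Among all genes tested, the 3 with a pattern most like that of Vegfa were Loxl4, Ets1 and Klf4 (r = 0.93, 0.92 and 0.92 over 18 libraries). For Ldha they were Snx8, Plin2 and Ece2 (r = 0.95, 0.94 and 0.92). Without the 2 libraries these correlations were between 0.88 and 0.93.

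Other genes of the HIF pathway were read from lists in which members take part. Of 14 genes of the HIF machinery, 13 were tested and Hif3a was at 0 counts in all libraries. With A-241 on average, 2 were called lower and 1 higher, with a median log2 difference of 0.04 against 0.00 over all genes. Over all genes, 7.05% were called lower and 3.39% higher. Without the libraries rich in Gm42418 the same 2 were called lower and 0 higher, against 9.76% and 5.74%, and the median turned to -0.05. With A-485 the median was 0.07, and -0.04 without those libraries. The genes called lower are Cited2 and Cited4, which encode proteins that bind the same CH1 domain of P300 and CBP as HIF does, and Cited2 is itself known as a HIF target. Cited2 was at 17.6 ± 13.3 CPM in DMSO (SD, n = 3), 3.45 ± 0.476 with A-241, 18.5 ± 8.63 with IFNγ and 2.34 ± 0.980 with A-241+IFNγ, and fell by 2.61 ± 0.40 on the log2 scale (SE, edgeR adjusted p = 0.000195). Cited4, a low gene with 55 counts in DMSO and 8 with A-241, fell by 2.05 ± 0.32 (adjusted p = 0.000277). Cited4 was also the machinery gene called with A-485, at -1.53 ± 0.31 (adjusted p = 0.00604), where Cited2 stood at -1.57 (adjusted p = 0.0173). With A-485 2.39% of all genes were called lower. Without the libraries rich in Gm42418 Cited4 was again the machinery gene called with A-485, against 4.56%. Ep300, which encodes a target of the inhibitors, rose with A-241 by 0.45 ± 0.11 (adjusted p = 0.00715), and Crebbp, which encodes the other, stood at 0.35 (adjusted p = 0.0211). The Ep300 call was lost without any 1 of 10 of the 12 libraries, the exceptions being replicate 1 of A-241 and replicate 1 of A-241+IFNγ, and without both libraries rich in Gm42418 (0.40, adjusted p = 0.0114).

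No call was made for the other machinery genes with A-241. Arnt, the partner of Hif1a, differed by 0.40, Epas1, which encodes HIF-2 alpha, by -0.37, Vhl by 0.22 and Hif1an by 0.18. The prolyl hydroxylase genes Egln1 and Egln2 differed by 0.06 and 0.04, and both turned negative without the libraries rich in Gm42418, at -0.22 and -0.05.

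Of 24 genes of glucose uptake and glycolysis, 22 were tested, Slc2a3 and Eno2 being too low. With A-241 on average 5 were called lower and 1 higher, and 20 were below 0, with a median of -0.39 against 0.00 over all genes and backgrounds of 7.05% lower and 3.39% higher. Leaving out the libraries rich in Gm42418 gave 6 lower, Hk1 being the addition, and 1 higher, against 9.76% and 5.74%, with a median of -0.29. Beside Ldha, the genes called lower were Hk2, the inducible hexokinase (-0.96 ± 0.12, adjusted p = 3.11e-05), Eno1, an enolase (-0.85 ± 0.14, adjusted p = 0.000381), Pfkfb3, which makes the activator of phosphofructokinase (-1.79 ± 0.36, adjusted p = 0.00201), and Aldoc, an aldolase (-1.06 ± 0.25, adjusted p = 0.006). Pfkfb4, another enzyme of the Pfkfb family, went the other way, from 1.17 ± 0.780 CPM in DMSO to 4.50 ± 2.31 with A-241 and from 1.79 ± 0.866 with IFNγ to 3.79 ± 0.738 with A-241+IFNγ, and rose by 1.41 ± 0.31 (adjusted p = 0.00387). Hk2 was at 37.2 ± 3.14 CPM in DMSO and 17.4 ± 0.397 CPM with A-241, while A-485 gave 37.2 ± 7.63 CPM. It was the glycolytic gene called in the direct comparison of A-241 with A-485 without IFNγ (-1.10 ± 0.17, adjusted p = 0.00387), at unequal doses, against a background of 0.351%. That call was lost without any 1 of 5 of its 6 libraries, the exception being A-485 replicate 2, with adjusted p up to 0.0377. With IFNγ the direct comparison called 0 glycolytic genes over all libraries, against 0.51%. Without the libraries rich in Gm42418 it called Hk2, against 1.24%. With A-485 on average 1 glycolytic gene was called, Eno1, at -0.64 ± 0.14 (adjusted p = 0.00996), against a background of 2.39%. The median was -0.19, and -0.09 without those libraries, where Eno1 was again the gene called, against 4.56%.

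Of 10 genes of vessel growth and tone, 7 were tested, Angptl4, Angpt2 and Pgf being too low. With A-241 on average 3 were called lower, Vegfa, Flt1 and Edn1, against a background of 7.05%, and the median was -0.95 against 0.00 over all genes. Edn1, which encodes the vasoconstrictor endothelin-1, held 46 counts in DMSO and 66 with IFNγ, against 2 with A-241 and 2 with A-241+IFNγ, and 29 and 24 with A-485 and A-485+IFNγ. Ratios of its levels, scaled by total counts, are given with exact 95% intervals for counting error. For A-241 the ratio was 0.0445 (0.00523 to 0.17) without IFNγ and 0.0364 (0.00432 to 0.137) with it. Its fitted difference with A-241 was -4.48 ± 0.43 (edgeR adjusted p = 1.74e-06), a size that depends on the prior count since so few counts remained. Flt1, a receptor of VEGF-A, fell by 0.95 ± 0.20 (adjusted p = 0.00322). With A-485 the median was -0.58 and no gene of this list was called, with Vegfa at an adjusted p of 0.0113 and Flt1 at 0.0123. Without the libraries rich in Gm42418, 6 of the 7 were called with A-241, against 9.76%, with a median of -1.27, and 1, Flt1, with A-485, against 4.56%, with a median of -0.63. Edn1 shares exon bases with Gm47118.

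Of 21 genes of feedback, stress and mitophagy, 19 were tested, Car9 and Car12 being too low, and the same 2 were called lower with either inhibitor, against backgrounds of 7.05% for A-241 and 2.39% for A-485. Bhlhe41, a transcriptional repressor also known as Dec2, was at 42.2 ± 11.3 CPM in DMSO, 15.0 ± 0.582 with A-241 and 29.4 ± 1.63 after A-485, and at 32.8 ± 8.50 with IFNγ, 8.60 ± 0.975 with A-241+IFNγ and 17.5 ± 1.94 with A-485+IFNγ. The average effect of A-241 on it was -1.72 ± 0.15 (adjusted p = 9.46e-07) and that of A-485 was -0.72 ± 0.15 (adjusted p = 0.00667). Ndrg1, a stress-response gene widely used as a marker of hypoxia, fell by 1.11 ± 0.13 (adjusted p = 1.86e-05) and by 0.61 ± 0.13 (adjusted p = 0.00974). The medians of this list were -0.14 and -0.11, against 0.00 and -0.02 over all genes. When the libraries rich in Gm42418 were left out they were -0.29 and -0.26, and Ddit4 was called as well with either inhibitor, against 9.76% and 4.56%. Bhlhe41 shares exon bases with Gm43909, and Ndrg1 with Gm17035 and Gm2895. Of 10 genes of matrix and iron handling 9 were tested, Trf being too low, and 0 were called with either inhibitor, with medians of -0.19 and -0.12. Without those libraries P4ha2, a collagen prolyl hydroxylase, was called lower with A-241 (-1.07 ± 0.23, adjusted p = 0.00166), and the medians were -0.06 and -0.17.

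The calls of listed genes were repeated with each library left out. With A-241, Cited2, Cited4, Hk2, Eno1, Pfkfb3, Edn1, Bhlhe41 and Ndrg1 were called with any 1 of the 12 libraries left out. Flt1 lost its call without A-241 replicate 1 or A-241+IFNγ replicate 1. Pfkfb4 lost it without DMSO replicate 2, A-241 replicate 1, or A-241+IFNγ replicate 1 or 3, and Aldoc without any 1 of 8, the exceptions being DMSO replicates 2 and 3 and IFNγ replicates 1 and 2. The 4 calls with A-485 were lost without any 1 of 9 (Cited4, Ndrg1), 10 (Bhlhe41) or 11 (Eno1) of 12 libraries. Each of the 4 was called without IFNγ replicate 2, at adjusted p from 0.00116 to 0.00966.

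**Figure D4:**
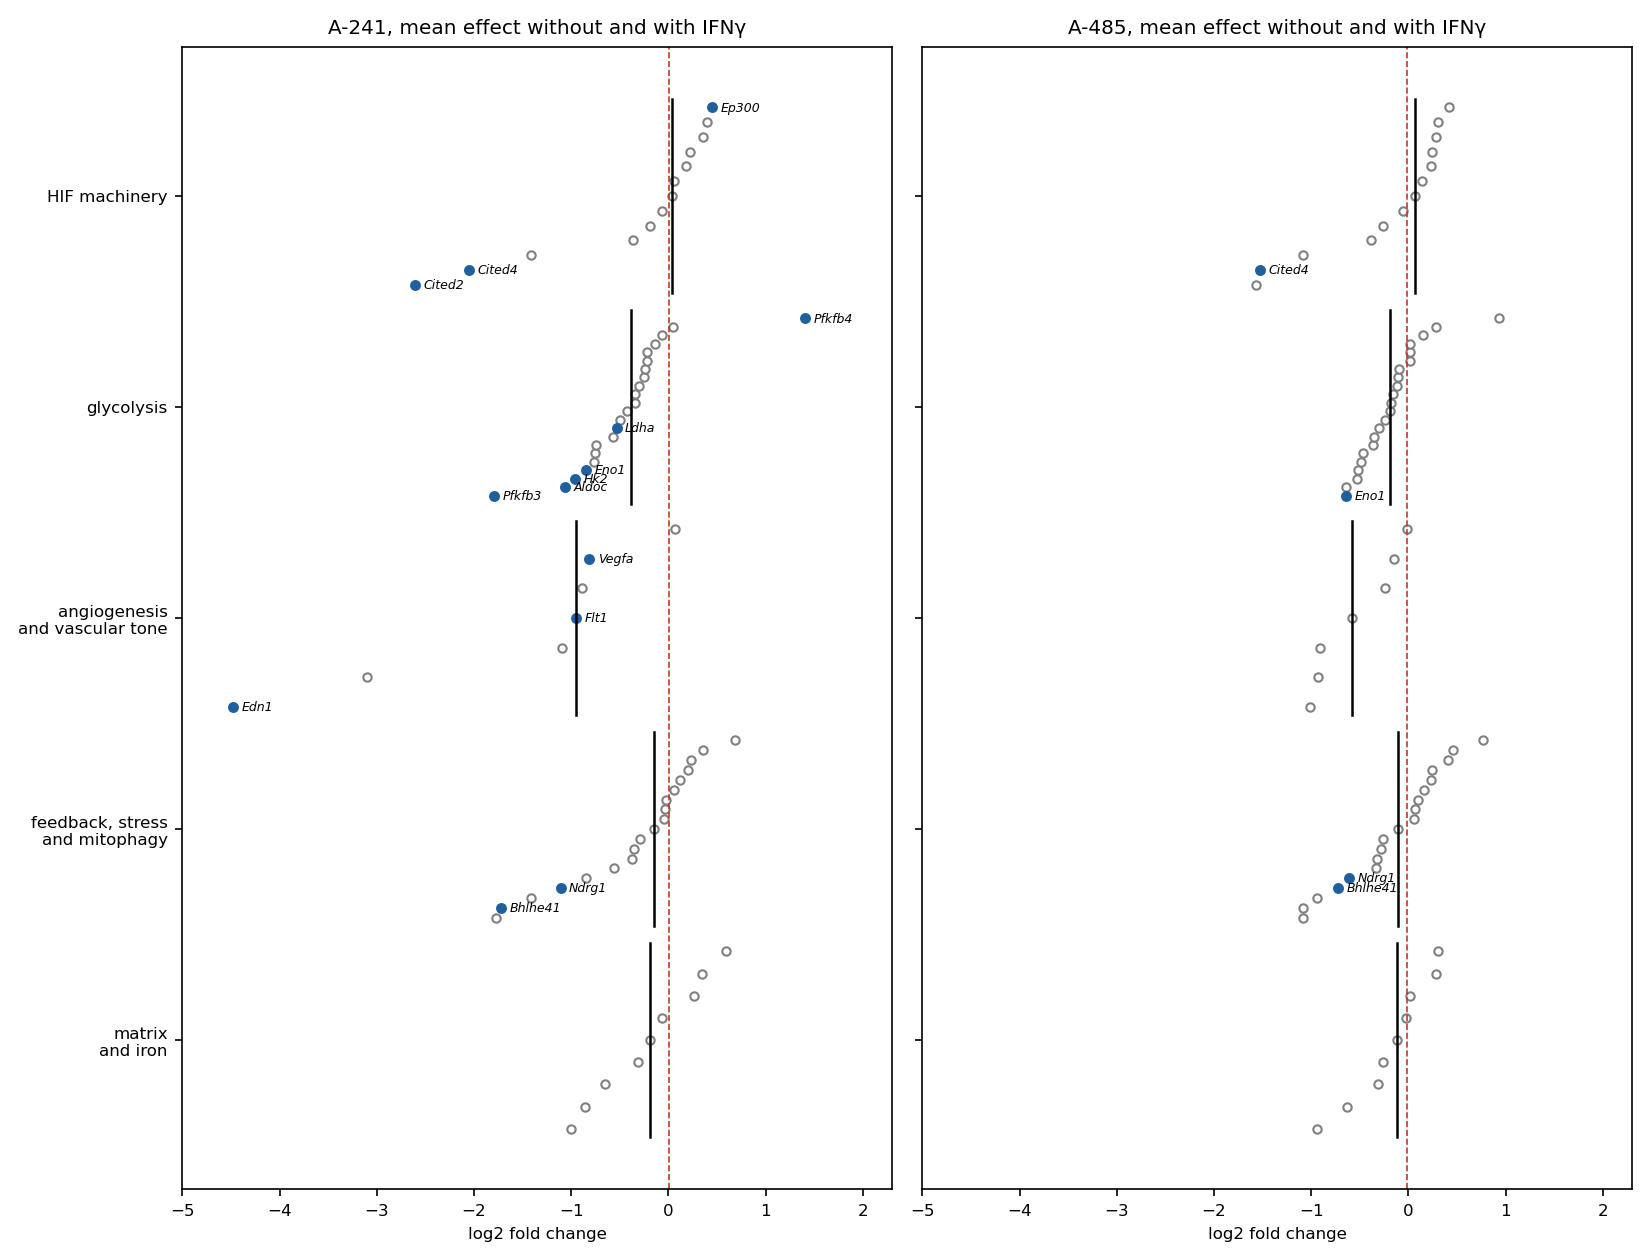
Average log2 fold change of the tested genes of 5 lists for A-241 (left) and A-485 (right), ordered by value within each list, with the median of the list as a black line and the median of all genes as a red dashed line. Filled, named points passed an adjusted p of 0.01, and in the glycolysis list A-241 has 5 such genes below 0 and Pfkfb4 above it.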

How the data were processed

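Reads were trimmed with cutadapt (1.7), inspected with FastQC (0.11.5), aligned with HISAT2 (2.1.0) and assigned to exons with featureCounts by the authors, per the submitters' notes and the study's methods. Overlapping genes each received a shared read, and no strand option is stated. The deposited table holds raw counts of 43629 Ensembl identifiers, of which 42548 (97.5%) were paired with a symbol, and 1 listed gene was matched through an older symbol. The annotation release is not given in the sources used here.

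All 18 libraries were fitted with 6 condition means by edgeR's quasi-likelihood F-test (edgeR 4.0.16 in R 4.3.3) after filterByExpr (11964 genes) and TMM scaling, and a gene was called at a Benjamini-Hochberg adjusted p under 0.01 over all genes tested. CPM values use TMM library sizes, and log2 CPM a prior count of 2. The exceptions are the floor of 3 counts and the ratios of pooled counts, which use total counts without TMM factors. An average effect is the mean of the differences without and with IFNγ. The members and lists were chosen with earlier results of these data known, so that no list is independent evidence. Named genes were the 10 members, genes of the lists that were called, set machinery genes in any case, and the 3 genes nearest in pattern to each member called. Alternatives were limma-voom (limma 3.58.1), DESeq2 (1.42.0), total counts, no filter, only the groups compared, a replicate block, 2 surrogate variables (sva 3.50.0), a threshold of 0.05, and each replicate or both libraries rich in Gm42418 left out. The steps were tested on simulated data. Total counts of 3417167 to 7856830 per library limit the precision for low genes, and intervals of pooled counts cover counting error only. No pair of replicate libraries agreed within sampling noise (chi-square per degree of freedom 2.09 to 125 over 18 pairs).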

Additional observations from a re-analysis of the deposited data

How the results depend on the processing

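Counts of members called are given for each setting that moved them by over 1.5 times. With A-241 against DMSO the count went from 0 to 2 with DESeq2, 4 without both libraries rich in Gm42418, 5 with 2 surrogate variables and 3 at a threshold of 0.05. With A-485 against DMSO it went from 0 to 1 without both libraries and 2 with surrogate variables. For IFNγ against DMSO and for A-485+IFNγ against IFNγ it went from 0 to 1 under each of these 2 settings. With A-241+IFNγ against IFNγ it went from 1 to 0 with no filter, with only the groups compared and with a replicate block, to 2 without both libraries and to 4 with surrogate variables, and it was 0 to 1 with each replicate left out. For A-241 against A-485 it went from 0 to 1 and 2 under the last 2 settings. For IFNγ added to A-241 and to A-485 it went from 0 to 1 with only the groups compared, without both libraries and with surrogate variables. For the average of A-241 it went from 2 to 4 with DESeq2 and without both libraries, to 1 with total counts, with only the groups compared and with a replicate block, to 6 with surrogate variables and to 6 at 0.05, and it was 1 to 4 with each replicate left out. For the average of A-485 it went from 0 to 1 with DESeq2 and without both libraries, 3 with surrogate variables and 2 at 0.05, and it was 0 to 1 with each replicate left out. The A-485 interaction went from 0 to 1 with surrogate variables, the member being Ddit4 (-1.36, adjusted p = 0.00024). The share of all genes called lower moved too, and without both libraries it is given with each comparison above. For the average of A-241 it was 7.05%, and 9.69% with DESeq2, 13.4% with surrogate variables and 11.9% at 0.05. For the average of A-485 it was 2.39%, and 4.26%, 6.08% and 4.70% under the same settings. For A-241 against DMSO it was 3.53%, and 5.30%, 10.1% and 6.20%. With surrogate variables it was 5.11% for A-485 against DMSO, 0.928% for IFNγ against DMSO and 2.63% for A-485+IFNγ against IFNγ. In the same setting it was 8.62% for A-241+IFNγ against IFNγ, 3.42% for A-241 against A-485 and 0.176% for the A-485 interaction. For IFNγ added to A-241 and to A-485 it was 0.192% and 0.593% there, and 0.0271% and 0.268% with only the groups compared. For A-241+IFNγ against IFNγ it was 1.72% with no filter, 0.725% with only the groups compared and 2.83% with a replicate block. For the average of A-241 it was 5.72% with total counts, 4.91% with only the groups compared and 6.23% with a replicate block. With each replicate left out, 234 to 429 genes were called lower for A-241+IFNγ against IFNγ. For the averages of A-241 and A-485 there were 685 to 907 and 163 to 336. The cause of these changes was not tested.

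Signs turned as follows, on the log2 scale. Without both libraries and with surrogate variables, Hif1a was 0.13 and 0.12 with A-241, while A-485 gave 0.061 and 0.035, Slc2a1 was -0.24 and -0.0080 with A-241, Pgk1 -0.10 and -0.14 with A-485, Egln1 -0.22 and -0.074 with A-241, and Egln2 -0.051 and -0.078 with A-241. With total counts Pgk1 was 0.026 with A-241. With each replicate left out, the ranges with A-241 were -0.14 to 0.25 for Slc2a1, -0.20 to 0.017 for Pgk1, -0.28 to 0.12 for Bnip3, -0.12 to 0.19 for Egln1 and -0.013 to 0.10 for Egln2, and with A-485 -0.30 to 0.10 for Slc2a1. The A-241 interaction ranged from -0.25 to 0.10 for Vegfa and from -0.92 to 0.063 for Ddit4. None of these values was called. Of 1456 values for single genes, 1244 kept direction and side of the threshold, 64 passed it newly, 120 lost it and 28 turned.

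Whether replicate numbers pair the libraries cannot be decided from their deviations from the condition means. These include both libraries rich in Gm42418, which carry different numbers, and libraries of different numbers were not compared. Over 45 pairs of conditions and numbers the deviations correlated at -0.80 to 0.48, and 15 exceeded 0.1. With the number as a block, Vegfa in A-241+IFNγ against IFNγ (adjusted p = 0.0119) and Ldha in the average of A-241 (adjusted p = 0.0115) were not called, and the other counts of members stayed at 0. The sensitivity to low genes is limited by depth, with 3 counts worth 0.382 to 0.878 CPM when scaled by total counts, and by 3 libraries per condition.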

Other observations

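Of 6 epithelial markers tested, 3 were called lower with A-241 on average and all 6 were below 0, and of 4 mesenchymal markers 2 were called lower, against 7.05% of all genes. Averaged over both cytokine states, Krt18, an epithelial keratin, fell by 0.67 on the log2 scale (edgeR adjusted p = 0.000279), Gata3, a luminal transcription factor, by 0.97 (adjusted p = 0.000127) and Sox9, a progenitor transcription factor, by 0.82 (adjusted p = 0.00123). The mesenchymal genes Vim, at -0.74 (adjusted p = 0.00156), and Fn1, at -0.56 (adjusted p = 0.000854), were called as well. Among the others, Krt8 stood at -0.24, Cdh1 at -0.17, Cdh2 at -0.21, Epcam at -0.00 and Col3a1 at 0.03, none of them called. Each of these 5 calls was also made with any 1 of the 12 libraries left out, and without both libraries rich in Gm42418, where Cdh1 was called too (-0.47, adjusted p = 0.00753) and Epcam stood at 0.22, against a background of 9.76%. With A-485, Gata3 fell by 0.78 (adjusted p = 0.00269), a call that was lost without A-485 replicate 1 (adjusted p = 0.0112), against a background of 2.39%, and Sox9 was called without both libraries (-0.60, adjusted p = 0.000169). With total counts in place of TMM factors, Fn1 was not called with A-241 (-0.44, adjusted p = 0.0248).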
